A study of Arabidopsis thaliana with 12 samples.

Results

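The interaction of genotype and submergence asks, for each transcript, whether the difference between submerged and dark leaves was the same in ago1-27 as in wild type. It was taken as (ago1-27_submerged minus ago1-27_dark) minus (WT_submerged minus WT_dark) on log2 signals, and it rests on all 12 arrays of the series, 3 in each of 4 groups. A value above 0 means that the change on submergence was more positive in ago1-27 than in wild type, and a value below 0 the opposite. Of 22810 probe sets on the ATH1 array, the 14812 with 3 or more arrays above that array's 40th percentile of signal, which also serves as the low-signal limit, were tested, and 8029 of these name 1 gene.

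All 4 groups were leaves of Arabidopsis thaliana of the Col-0 ecotype, 4 weeks old by the sample labels. WT_dark and WT_submerged were wild type, and ago1-27_dark and ago1-27_submerged carried ago1-27, a hypomorphic allele of ARGONAUTE1 and the only allele used. The dark groups spent 12 h in darkness, and the submerged groups spent 12 h in darkness under water standing 10 cm above the leaves. Each array held RNA pooled from 4 plants, and the replicates are described as biological. Pools of whole leaves cannot separate fewer cells of a type from less RNA per cell.

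ARGONAUTE1 is the protein that carries microRNAs to their target transcripts, which are then cut or held back from translation, so a weak allele leaves many developmental and stress transcripts misregulated. Submerged leaves lose their exchange of oxygen and carbon dioxide with the air, and plants answer by stabilising group VII ethylene response factors, which switch on fermentation, calmodulin-like proteins and other low-oxygen transcripts. In the dark there is no photosynthetic oxygen to soften this, and sugar reserves run down in both air and water.

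Before the results, the labels and the arrays need describing. Of the leaf mesophyll markers named on the array, RCA (Rubisco activase) gave 19390 to 32070 and the light-harvesting gene LHCB4.2 2608 to 24230, and both lay above the low-signal limit on 12 of 12 arrays. PSAN, a photosystem I subunit, was above it on 12 as well, as was the guard cell marker GC1, while FAMA, another guard cell gene, passed on 8 and the root gene EXPA7 on 0. EXPA7 was the only 1 of 6 root markers named, and 0 of 2 phloem, 0 of 4 flower and 0 of 3 seed markers were named. Other tissues were therefore largely not checked. AGO1 has no probe set with its name in the annotation used here, so the mutant label was not checked on its own transcript. WT_dark replicate 1 stood apart from the other WT_dark arrays (first principal component -47.4 against -101 and -86.5), and ago1-27_submerged replicate 3 lay apart on the second (-51.7 against -6.31 and -10.5). Their weights in a fit with array weights were 0.256 and 0.247, under those of the other 10 arrays. The ratio of 3' to 5' actin signal, a measure of RNA integrity, also carried an interaction, of 0.85 on the log2 scale, with group means of 7.95 ± 0.477 (SD, n = 3) in WT_dark, 6.30 ± 0.63 in WT_submerged, 8.02 ± 0.86 in ago1-27_dark and 11.4 ± 0.989 in ago1-27_submerged. An exact permutation test, two-sided, of treatment labels within genotype gave p = 0.005, the smallest that 400 arrangements can give (adjusted p = 0.02 over 4 such tests). Its null is no treatment difference in either genotype, so it does not test equal treatment effects alone. The GAPDH ratio, with an interaction of 0.16 (adjusted p = 0.355, exact permutation test), the ubiquitin ratio, with 0.19 (adjusted p = 0.355), and the 25S ribosomal RNA signal, with -0.72 (adjusted p = 0.22), did not pass. The part of the actin ratio in the results was not tested.

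The treatment's own marker genes followed the labelled genotype and not the labelled treatment. CML38, a calmodulin-like gene that low oxygen induces, gave signals of 3930, 4928 and 4377 on the WT_dark arrays, 4849, 4494 and 5114 on WT_submerged, 41.9, 34.3 and 36.4 on ago1-27_dark and 29.7, 18.9 and 34.1 on ago1-27_submerged. All 6 arrays labelled WT were high and all 6 labelled ago1-27 lay under the low-signal limit, and submergence moved neither pair of groups past the test. PDC2, a pyruvate decarboxylase of ethanol fermentation, gave signals of 3357, 2376 and 2781 on the WT_dark arrays, 2231, 3304 and 2600 on WT_submerged, 140.0, 100.1 and 101 on ago1-27_dark and 91.7, 128 and 236 on ago1-27_submerged, again high on every WT array and low on every ago1-27 array. An exchange of the WT_dark and ago1-27_submerged labels would turn this split into one by treatment, and whether the labels were exchanged was not tested. The array control probe set U12639, in contrast, parted the arrays by labelled treatment, with 24470 to 29780 on the 6 dark arrays and 1.74 to 44.7 on the 6 submerged arrays. The interaction is the sum of the ago1-27_submerged and WT_dark levels minus the sum of the other 2 groups, so its value would not change with such an exchange. The response within a genotype would change, and each response below is given under the labels as deposited.

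Few transcripts had an interaction that passed the test. Of 14812 probe sets 42 were called (0.284%), 21 above 0 (0.142%) and 21 below 0 (0.142%), by limma at a Benjamini-Hochberg adjusted p under 0.05, while 2187 had an unadjusted p under 0.05 and the smallest adjusted p was 0.0129. The submergence response alone was called for 1048 probe sets in wild type (7.08%) and for 1241 in ago1-27 (8.38%). These counts are not directly comparable with that of the interaction. An interaction combines all 4 group means and so has a larger standard error than a single response (0.56 against 0.40 for AT4G12500). Over all 14812 the median interaction was -0.03, and 41 of the 42 calls were at least 2-fold, with values from -3.86 to 4.06. Leaving out WT_dark replicate 1 raised the count to 726 (4.9%), with 275 above 0 (1.86%) and 451 below 0 (3.04%), and all 42 calls were among them. The median over all probe sets then was -0.08. Leaving out the other arrays in turn gave 5 to 69 calls, and leaving out both arrays that stood apart gave 1200 (8.1%), with 434 above 0 (2.93%) and 766 below 0 (5.17%), a choice made after the data were seen. Median centring gave 14 calls, of which 13 were among the 42. A fit with array weights gave 1798, with 648 above 0 and 1150 below 0, and all 42 were among them. The count called is therefore not a count of the transcripts that differed.

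**Figure D1:**
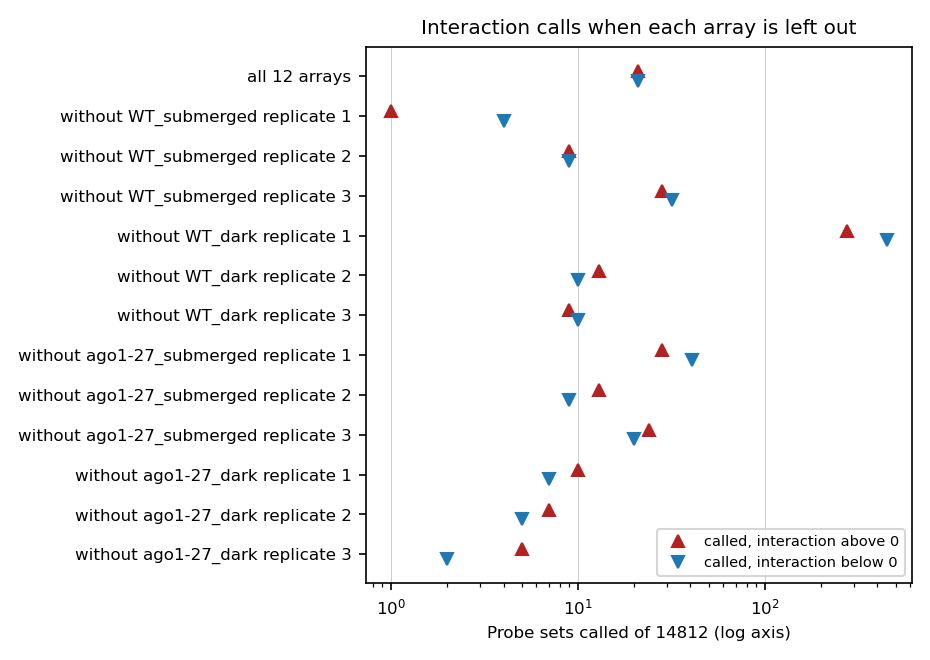
Number of probe sets called for the interaction above 0 (red) and below 0 (blue) among 14812 tested, on a log axis, with all 12 arrays and with each array left out. Leaving out WT_dark replicate 1 gave 726 calls, against 42 with all arrays and 5 to 69 with any other array left out.

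Under the labels as deposited, most calls had submergence responses of opposite sign in the 2 genotypes. An exchange of the WT_dark and ago1-27_submerged labels would change these responses, and the signs under it were not counted. The responses in wild type and ago1-27 had opposite signs for 33 of the 42, against 5572 of all 14812 (37.6%); calls were chosen on the difference of the same responses, so this describes them and tests nothing. Submergence was called in wild type alone for 17, in ago1-27 alone for 12 and in both for 13, of which 9 were called in opposite directions. The level farthest from the other groups was that of ago1-27_dark for 14 calls, WT_dark for 13, WT_submerged for 10 and ago1-27_submerged for 5. For 4 of the 42 every array of WT_dark and ago1-27_submerged lay on one side of every array of the other groups. The matching shares over all probe sets were not counted for the farthest group or for this separation, so both describe the calls alone. Of the 42, 22 name 1 gene and all of these are described here, while the other 20 are unnamed in the annotation. Where the annotation gives a locus number alone, the kind of protein is stated from general knowledge and left out where it is uncertain.

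**Figure D2:**
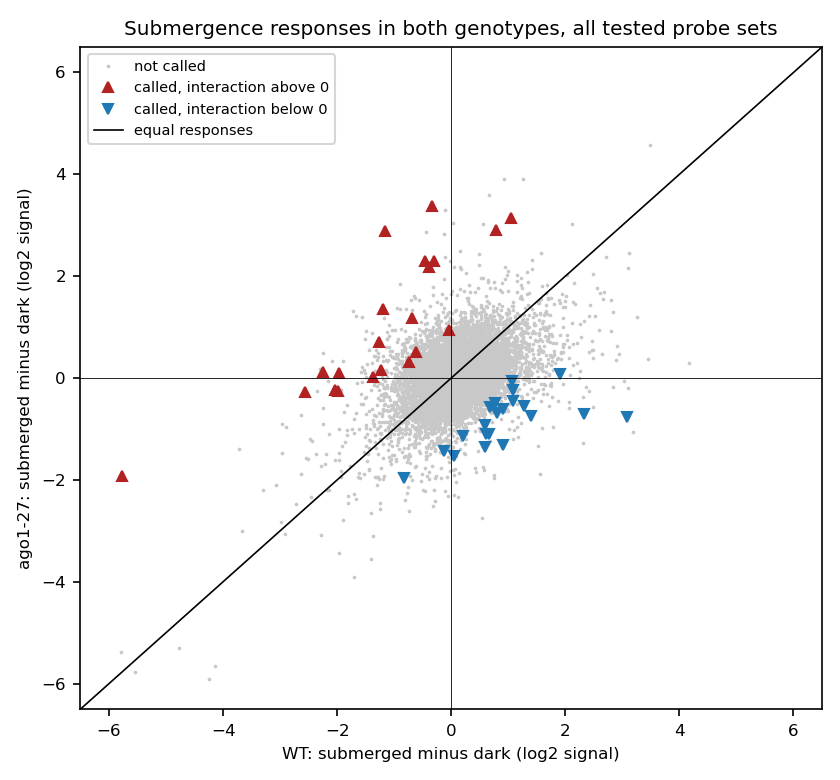
Each point is a probe set, with its submergence response in wild type on the x axis and in ago1-27 on the y axis (differences of mean log2 signal). The 21 calls above 0 (red) lie up and left of the line of equal responses, and the 21 below 0 (blue) down and right of it.

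Of the 22 named genes, 4 rose in one genotype and fell in the other, each past the test. Replicates are given in the order 1, 2 and 3 throughout. AT2G05540, which encodes a glycine-rich protein, gave signals of 126, 157 and 103 on the WT_dark arrays, 298, 405 and 314 on WT_submerged, 793, 915 and 889 on ago1-27_dark and 559.5, 516 and 474 on ago1-27_submerged. The 4 groups did not overlap: WT_dark was lowest and ago1-27_dark highest, and the submerged groups lay between them. The log2 response was 1.41 ± 0.18 in wild type (adjusted p = 0.001) and -0.75 ± 0.18 in ago1-27 (adjusted p = 0.023), so that its interaction was -2.15 ± 0.25 (adjusted p = 0.013). AT3G50560, of a family of oxidoreductases that bind NAD(P), gave signals of 282, 232 and 243 on the WT_dark arrays, 479, 381 and 343 on WT_submerged, 426, 554 and 461 on ago1-27_dark and 233, 215 and 219 on ago1-27_submerged. All 6 arrays of WT_submerged and ago1-27_dark lay above all 6 of WT_dark and ago1-27_submerged. On submergence the log2 change was 0.66 ± 0.16 in wild type (adjusted p = 0.028) and -1.10 ± 0.16 in ago1-27 (adjusted p = 0.0025), and the interaction was -1.76 ± 0.23 (adjusted p = 0.015). Without WT_dark replicate 1 the WT_dark mean was 130.0 for AT2G05540 and 238 for AT3G50560, and the interactions were -2.15 ± 0.26 (adjusted p = 0.0031) and -1.85 ± 0.23 (adjusted p = 0.0031). Both stayed called with each of the 12 arrays left out in turn, as AT3G27770 below did, and no other called probe set did so.

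The other pair fell in wild type and rose in ago1-27. Hop2 (AT1G62740), a co-chaperone that links Hsp70 and Hsp90, gave signals of 1176, 2085 and 1970 on the WT_dark arrays, 975, 1094 and 1078 on WT_submerged, 354, 324 and 346 on ago1-27_dark and 695, 728 and 892 on ago1-27_submerged. The submerged WT arrays lay under the WT_dark arrays and the submerged ago1-27 arrays above those in the dark, with ago1-27_dark lowest of all. Submerged minus dark on the log2 scale came to -0.69 ± 0.19 in wild type (adjusted p = 0.049) and 1.17 ± 0.19 in ago1-27 (adjusted p = 0.0049), and the interaction was 1.86 ± 0.27 (adjusted p = 0.016). AT5G46230 gave signals of 259.7, 147 and 269 on the WT_dark arrays, 103, 75.2 and 110.0 on WT_submerged, 63.5, 51.0 and 58.8 on ago1-27_dark and 132, 171 and 144 on ago1-27_submerged. All 6 arrays of WT_dark and ago1-27_submerged were above the other 6, and ago1-27_dark lay under the low-signal limit on all 3, so the rise in ago1-27 was at least 1.65-fold. The fitted log2 change with submergence was -1.20 ± 0.27 in wild type (adjusted p = 0.02) and 1.36 ± 0.27 in ago1-27 (adjusted p = 0.011), and the interaction was 2.56 ± 0.38 (adjusted p = 0.016). Without WT_dark replicate 1 the WT_dark mean of Hop2 was 2028, since that array was its lowest, and its interaction was 2.12 ± 0.18 (adjusted p = 0.00053). For AT5G46230 the corresponding mean was 208 and the interaction 2.44 ± 0.41 (adjusted p = 0.0086).

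**Figure D3:**
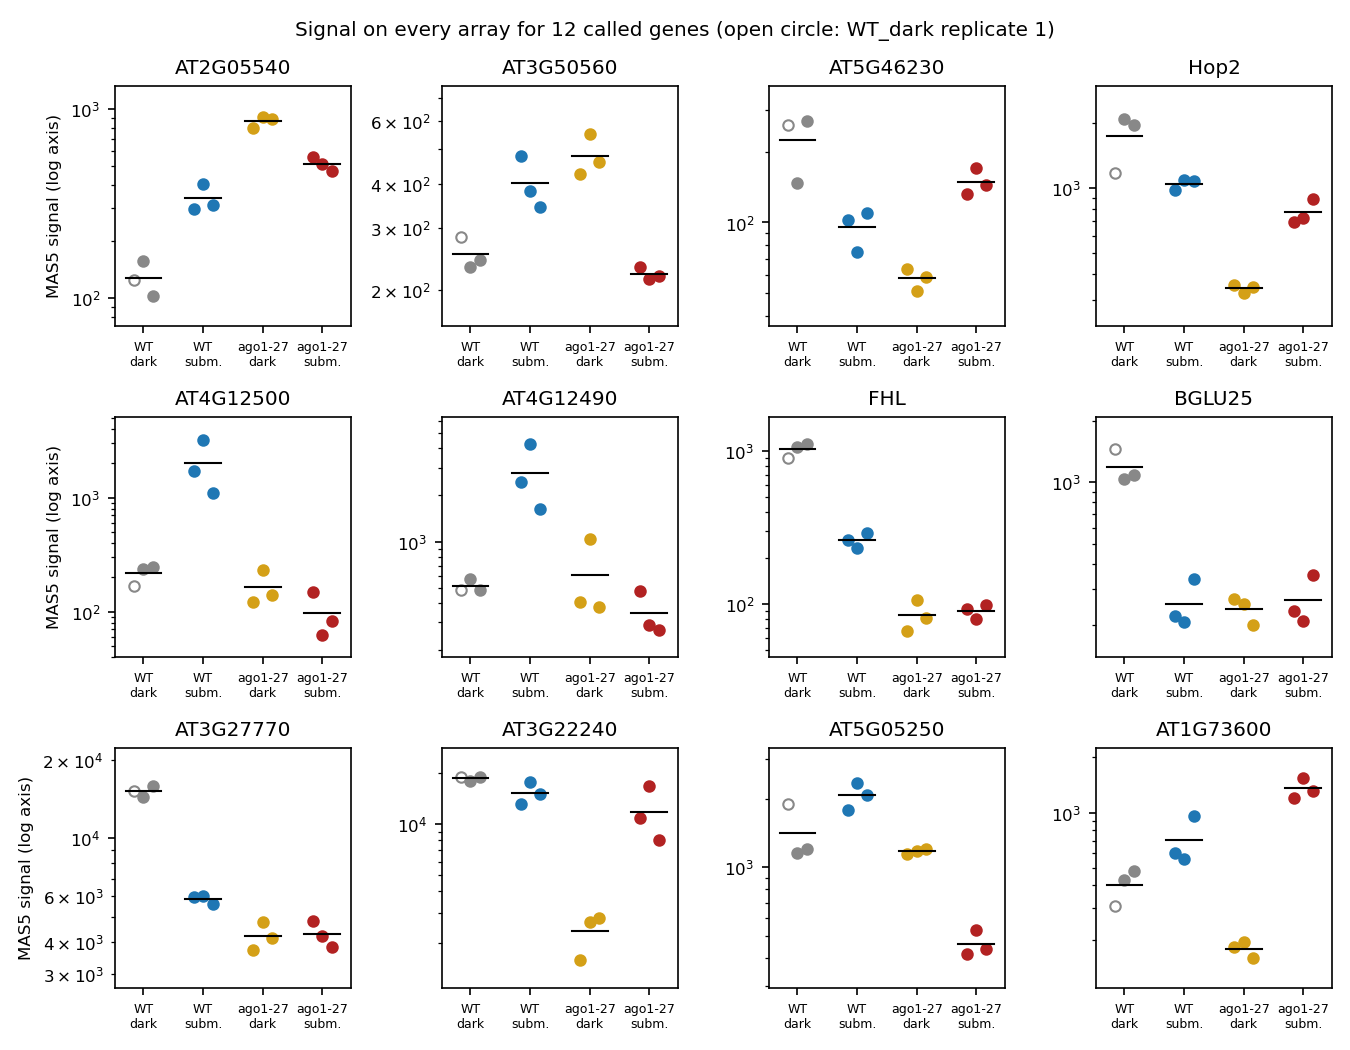
MAS5 signal on every array (log axis) for 12 of the called genes, by group, with a bar at the group mean and an open circle for WT_dark replicate 1. AT2G05540 has 4 groups that do not overlap, whereas AT4G12500, AT4G12490, FHL and BGLU25 each have 1 group far from the other 3.

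In the next set submergence changed the transcript in wild type, and the change in ago1-27 did not pass the test; the interaction is itself the test of the difference. The neighbouring genes AT4G12500 and AT4G12490 encode hybrid proline-rich lipid transfer proteins, a family tied to defence and to the cell wall, and had the most negative interactions of the named genes. AT4G12500 gave signals of 167, 238 and 244 on the WT_dark arrays, 1691, 3196 and 1092 on WT_submerged, 120.5, 232 and 139 on ago1-27_dark and 149, 62.9 and 82.2 on ago1-27_submerged. Every WT_submerged array stood above all 9 others. Replicates 2 and 3 of ago1-27_submerged lay under their low-signal limits of 91.9 and 120. The fitted response in ago1-27 thus rests partly on dim signals, though a floor at the array's 25th percentile left the interaction at -3.86. The change on submergence, on the log2 scale, was 3.08 ± 0.40 in wild type (adjusted p = 0.0012) and -0.77 ± 0.40 in ago1-27 (adjusted p = 0.25), and the interaction was -3.86 ± 0.56 (adjusted p = 0.016). AT4G12490 gave signals of 486, 569 and 483 on the WT_dark arrays, 2439, 4265 and 1620 on WT_submerged, 405, 1036 and 378 on ago1-27_dark and 476, 288 and 266 on ago1-27_submerged. WT_submerged was again above the rest, and ago1-27_dark replicate 2 was the highest of the others. Its log2 response amounted to 2.33 ± 0.39 in wild type (adjusted p = 0.0051) and -0.71 ± 0.39 in ago1-27 (adjusted p = 0.29), with an interaction of -3.03 ± 0.56 (adjusted p = 0.046). Without WT_dark replicate 1 the WT_dark means were 241 and 526, and the interactions -3.68 ± 0.58 (adjusted p = 0.0074) and -2.997 ± 0.60 (adjusted p = 0.019). The 2 genes are similar in sequence, and whether their probe sets read each other's transcript was not tested.

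More genes rose in wild type alone. AT4G18970, of the GDSL esterase and lipase family, gave signals of 406, 244 and 232 on the WT_dark arrays, 1266, 972 and 985 on WT_submerged, 1624, 1711 and 1245 on ago1-27_dark and 1733, 1741 and 1364 on ago1-27_submerged. The 3 WT_dark arrays lay below all 9 others, among which WT_submerged overlapped the ago1-27 arrays at its upper end. The log2 response was 1.91 ± 0.22 in wild type (adjusted p = 0.00066) and 0.08 ± 0.22 in ago1-27 (adjusted p = 0.85), and the interaction was -1.82 ± 0.30 (adjusted p = 0.028). AT3G10720, of the pectin methylesterase family that modifies cell wall pectin, gave signals of 879, 996 and 1128 on the WT_dark arrays, 2372, 2190 and 1773 on WT_submerged, 1529, 1457 and 1454 on ago1-27_dark and 1489, 1276 and 1058 on ago1-27_submerged. WT_submerged was above every other array. On submergence the log2 change was 1.07 ± 0.15 in wild type (adjusted p = 0.0021) and -0.23 ± 0.15 in ago1-27 (adjusted p = 0.38), and the interaction was -1.30 ± 0.22 (adjusted p = 0.028). AT5G66930, whose synonym ATG101 names a subunit of the kinase complex that starts autophagy, gave signals of 725, 766 and 664 on the WT_dark arrays, 1614, 1419 and 1473 on WT_submerged, 402, 403 and 339 on ago1-27_dark and 392, 341 and 358 on ago1-27_submerged. WT_submerged again stood above all others, and the ago1-27 groups overlapped at the lowest level. Submerged minus dark on the log2 scale came to 1.06 ± 0.13 in wild type (adjusted p = 0.00078) and -0.07 ± 0.13 in ago1-27 (adjusted p = 0.78), and the interaction was -1.13 ± 0.18 (adjusted p = 0.019). AT1G61260 gave signals of 900.1, 1188 and 1011 on the WT_dark arrays, 2331, 1673 and 2607 on WT_submerged, 116, 144 and 182 on ago1-27_dark and 100.2, 107 and 113 on ago1-27_submerged. It was far higher on every WT array than on any ago1-27 array, and WT_submerged was highest. The fitted log2 change with submergence was 1.08 ± 0.20 in wild type (adjusted p = 0.0077) and -0.44 ± 0.20 in ago1-27 (adjusted p = 0.19), and the interaction was -1.52 ± 0.28 (adjusted p = 0.046). AT5G08350 gave signals of 88.8, 105 and 104 on the WT_dark arrays, 153, 234 and 181 on WT_submerged, 436, 448 and 402 on ago1-27_dark and 313, 305 and 229 on ago1-27_submerged. WT_dark was lowest and ago1-27_dark highest, and the submerged groups met between them. The change on submergence, on the log2 scale, was 0.91 ± 0.19 in wild type (adjusted p = 0.014) and -0.61 ± 0.19 in ago1-27 (adjusted p = 0.064), and the interaction was -1.53 ± 0.27 (adjusted p = 0.037).

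Without WT_dark replicate 1 the WT_dark means of these 5 genes were 238 for AT4G18970, 1062 for AT3G10720, 715 for AT5G66930, 1100 for AT1G61260 and 104 for AT5G08350. All 5 interactions kept their sign and stayed called. The largest shift was that of AT4G18970, to -2.08 ± 0.24 (adjusted p = 0.0025).

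Another 4 genes fell in wild type, with no called change in ago1-27. FHL (AT5G02200), which with its paralog FHY1 carries phytochrome A into the nucleus, gave signals of 902, 1068 and 1120 on the WT_dark arrays, 263, 234 and 291 on WT_submerged, 66.8, 106 and 81.0 on ago1-27_dark and 92.4, 79.1 and 97.8 on ago1-27_submerged. Its WT_dark arrays were highest, WT_submerged came next, and the ago1-27 groups overlapped near the low-signal limit, with arrays of both groups on either side of it. FHL may have fallen unrecorded in ago1-27 at that level, which was not tested. Its log2 response amounted to -1.97 ± 0.19 in wild type (adjusted p = 0.0003) and 0.11 ± 0.19 in ago1-27 (adjusted p = 0.77), and the interaction was 2.08 ± 0.27 (adjusted p = 0.015). BGLU25 (AT3G03640), a beta-glucosidase, gave signals of 1449, 1041 and 1085 on the WT_dark arrays, 221, 207 and 336 on WT_submerged, 268, 254 and 199.5 on ago1-27_dark and 234, 210.0 and 350.2 on ago1-27_submerged. WT_dark was above every other array, and the other 3 groups overlapped. The log2 response was -2.24 ± 0.24 in wild type (adjusted p = 0.00054) and 0.12 ± 0.24 in ago1-27 (adjusted p = 0.8), and the interaction was 2.36 ± 0.34 (adjusted p = 0.015). AT3G27770 gave signals of 15220, 14400 and 15880 on the WT_dark arrays, 5931, 5975 and 5588 on WT_submerged, 3704, 4760 and 4127 on ago1-27_dark and 4796, 4201 and 3816 on ago1-27_submerged. Again WT_dark stood alone at the top, WT_submerged was lower and the ago1-27 groups overlapped. On submergence the log2 change was -1.38 ± 0.12 in wild type (adjusted p = 0.00021) and 0.03 ± 0.12 in ago1-27 (adjusted p = 0.92), and the interaction was 1.41 ± 0.17 (adjusted p = 0.013). CHI, here the chitinase gene AT2G43570 and not chalcone isomerase, gave signals of 499.8, 688 and 489.9 on the WT_dark arrays, 129.7, 150.2 and 141 on WT_submerged, 453, 474 and 649 on ago1-27_dark and 374, 613 and 359 on ago1-27_submerged. In this case WT_submerged was the group that stood apart, below all 9 other arrays. Submerged minus dark on the log2 scale came to -1.98 ± 0.22 in wild type (adjusted p = 0.00066) and -0.25 ± 0.22 in ago1-27 (adjusted p = 0.51), and the interaction was 1.73 ± 0.31 (adjusted p = 0.046).

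With WT_dark replicate 1 left out, the WT_dark means were 1094 for FHL, 1063 for BGLU25, 15140 for AT3G27770 and 589 for CHI. Their interactions without that array were 2.17 ± 0.29 (adjusted p = 0.0044), 2.21 ± 0.34 (adjusted p = 0.0068), 1.40 ± 0.18 (adjusted p = 0.0039) and 1.80 ± 0.33 (adjusted p = 0.014).

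In a further 5 genes the called response was that of ago1-27. AT3G22240 gave signals of 18820, 17750 and 18940 on the WT_dark arrays, 13030, 17500 and 14920 on WT_submerged, 1587, 2661 and 2796 on ago1-27_dark and 10760, 16600 and 7995 on ago1-27_submerged. Both WT groups and ago1-27_submerged were high, and ago1-27_dark was below every other array. The fitted log2 change with submergence was -0.30 ± 0.25 in wild type (adjusted p = 0.53) and 2.31 ± 0.25 in ago1-27 (adjusted p = 0.00051), and the interaction was 2.60 ± 0.36 (adjusted p = 0.015). AT5G05250 gave signals of 1897, 1156 and 1207 on the WT_dark arrays, 1797, 2366 and 2095 on WT_submerged, 1145, 1187 and 1206 on ago1-27_dark and 416, 530.1 and 439 on ago1-27_submerged. Here ago1-27_submerged was below every other array, and WT_dark replicate 1 lay among the WT_submerged arrays. The change on submergence, on the log2 scale, was 0.58 ± 0.18 in wild type (adjusted p = 0.076) and -1.36 ± 0.18 in ago1-27 (adjusted p = 0.0015), and the interaction was -1.94 ± 0.26 (adjusted p = 0.015). With that WT_dark array left out, the response in wild type was called too, at 0.81 (adjusted p = 0.0037), and the interaction was -2.17 ± 0.20 (adjusted p = 0.00053). AT2G39980, an acyltransferase of the BAHD type, gave signals of 153, 117 and 164 on the WT_dark arrays, 182, 216 and 258 on WT_submerged, 464, 527 and 402 on ago1-27_dark and 272, 226 and 231 on ago1-27_submerged. It was highest in ago1-27_dark and lowest in WT_dark. Its log2 response amounted to 0.59 ± 0.19 in wild type (adjusted p = 0.078) and -0.93 ± 0.19 in ago1-27 (adjusted p = 0.012), and the interaction was -1.52 ± 0.27 (adjusted p = 0.037). WT_dark means without replicate 1 were 18340 for AT3G22240, 1182 for AT5G05250 and 141 for AT2G39980, and the interactions of AT3G22240 and AT2G39980 were 2.59 ± 0.38 (adjusted p = 0.006) and -1.57 ± 0.28 (adjusted p = 0.012).

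Among the 22 named genes, the 2 largest positive interactions rest on dim signals. AT3G09480, of the histone H2B family, gave signals of 122, 163 and 219 on the WT_dark arrays, 56.4, 76.2 and 90.3 on WT_submerged, 7.98, 5.51 and 13.8 on ago1-27_dark and 64.7, 53.0 and 72.5 on ago1-27_submerged. AT2G20560, of the DnaJ family of Hsp70 co-chaperones, gave signals of 114, 192 and 166 on the WT_dark arrays, 65.9, 149 and 182 on WT_submerged, 5.67, 5.72 and 5.004 on ago1-27_dark and 51.2, 59.4 and 59.7 on ago1-27_submerged. For both genes all 6 ago1-27 arrays lay under the low-signal limit, so the response in ago1-27 has no measured fold. The fitted interactions were 4.06 ± 0.62 (adjusted p = 0.017) and 3.72 ± 0.62 (adjusted p = 0.028), and with a floor at the array's 25th percentile they were 2.05 (adjusted p = 0.05, still under the threshold before rounding) and 1.07 (adjusted p = 0.33). WT_dark means without replicate 1 were 191 and 179, with interactions of 4.27 ± 0.69 (adjusted p = 0.0078) and 3.93 ± 0.69 (adjusted p = 0.011).

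A last pair moved the same way in both genotypes and by unequal amounts. AT1G73600, a phosphoethanolamine methyltransferase of choline synthesis, gave signals of 308, 426 and 476 on the WT_dark arrays, 601, 558 and 962 on WT_submerged, 184, 196 and 159.5 on ago1-27_dark and 1201, 1545 and 1316 on ago1-27_submerged. It rose in both, with no overlap, from the lowest level in ago1-27_dark to the highest in ago1-27_submerged. The log2 response was 0.79 ± 0.22 in wild type (adjusted p = 0.048) and 2.91 ± 0.22 in ago1-27 (adjusted p = 2.9e-05), and the interaction was 2.12 ± 0.31 (adjusted p = 0.016). After WT_dark replicate 1 was dropped, the WT_dark mean was 451, the WT response missed the threshold at 0.61 (adjusted p = 0.072), and the interaction was 2.30 ± 0.29 (adjusted p = 0.0031). AT5G50915, a bHLH transcription factor, gave signals of 240.0, 248 and 204 on the WT_dark arrays, 124, 123 and 142 on WT_submerged, 1163, 1384 and 1107 on ago1-27_dark and 331, 327 and 281 on ago1-27_submerged. It fell in both, without overlap, and further from its higher start in ago1-27. On submergence the log2 change was -0.83 ± 0.15 in wild type (adjusted p = 0.0067) and -1.96 ± 0.15 in ago1-27 (adjusted p = 2.9e-05), and the interaction was -1.13 ± 0.21 (adjusted p = 0.046). The WT_dark mean without replicate 1 was 226 and the interaction -1.16 ± 0.22 (adjusted p = 0.016).

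**Figure D4:**
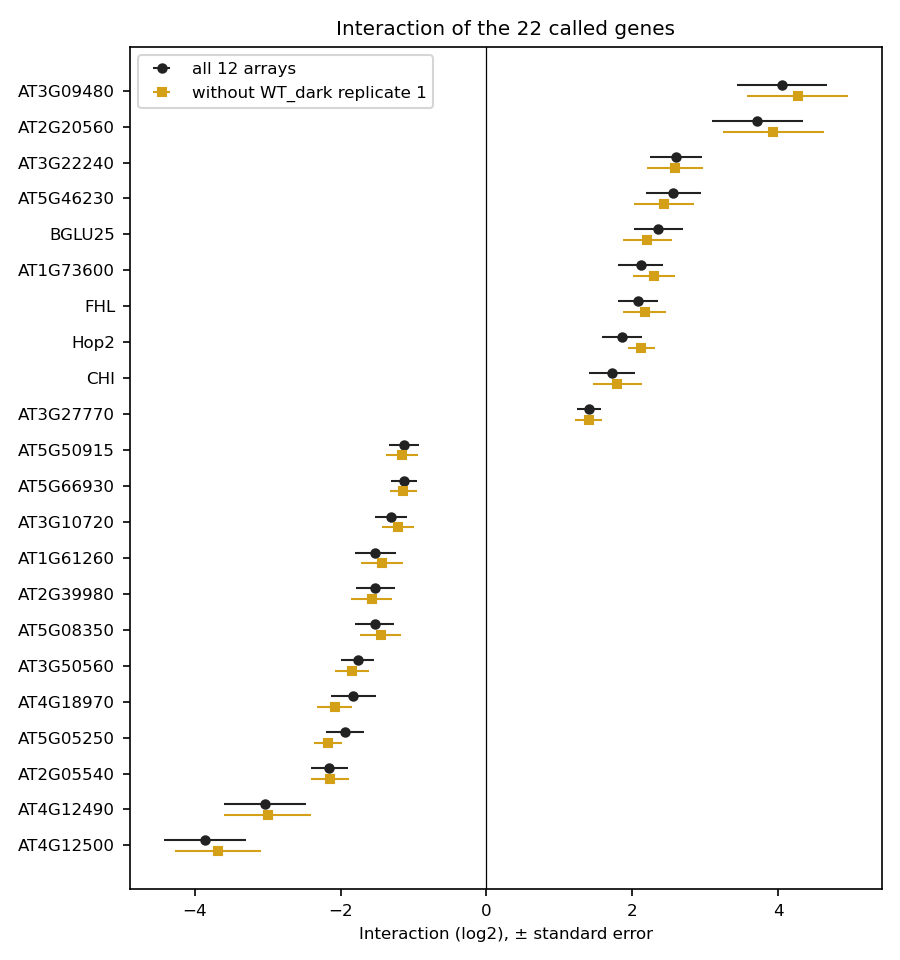
Interaction on the log2 scale with its standard error for the 22 called genes, from all 12 arrays (circles) and without WT_dark replicate 1 (squares). The sign was the same in both fits for every gene, and AT4G12500, at -3.86 and -3.68, was the lowest in both.

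All 22 genes kept the sign of their interaction with each array left out, and the calls depended on single arrays to different degrees. FHL, AT3G22240 and AT5G05250 stayed called in 11 of the 12 fits, BGLU25 and AT1G73600 in 10, Hop2 and AT4G12500 in 9, AT3G09480 in 8 and AT5G46230 in 7. AT3G10720 and AT5G66930 did so in 5, AT2G20560 in 4, AT4G12490, AT4G18970 and CHI in 3, AT5G08350, AT2G39980 and AT1G61260 in 2 and AT5G50915 in 1. Without WT_submerged replicate 1 the test kept 4 of the 22, without ago1-27_dark replicate 3 it kept 6 and without ago1-27_dark replicate 2 it kept 9, and in these fits the adjusted p reached 0.16, 0.11 and 0.16. Each of the other 9 fits kept 11 to 22. Median centring kept 9 of the 22, namely AT4G12500, AT2G05540, AT5G05250, AT3G50560, FHL, BGLU25, AT5G46230, AT3G22240 and AT3G09480, and for the other 13 the adjusted p was 0.051 to 0.12.

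Of 7 measured genes on a list of known microRNA targets limma called 0, beside 0.284% of all probe sets, and 1 had an unadjusted p under 0.05, beside 14.8%. Both counts are near those shares and say nothing particular about the targets. The median interaction was -0.16, and its sign turned with the floor at the 25th percentile (0.17) and without ago1-27_dark replicate 1 (0.15). Without WT_dark replicate 1 limma again called 0, with 1 at an unadjusted p under 0.05, beside 22.3% of all probe sets. AGL16, a MADS box gene targeted by miR824, gave signals of 1019, 997 and 1028 on the WT_dark arrays, 552, 519 and 411 on WT_submerged, 987, 1066 and 1039 on ago1-27_dark and 344, 374 and 254 on ago1-27_submerged. It fell on submergence in both genotypes without overlap, from dark levels that overlapped. Submerged minus dark on the log2 scale came to -1.05 ± 0.16 in wild type (adjusted p = 0.003) and -1.69 ± 0.16 in ago1-27 (adjusted p = 0.00022), and the interaction was -0.64 ± 0.23 (adjusted p = 0.21). CCS, the copper chaperone of superoxide dismutase and a target of miR398, gave signals of 2428, 2812 and 2825 on the WT_dark arrays, 1336, 1708 and 582 on WT_submerged, 3276, 3081 and 3250 on ago1-27_dark and 1182, 1197 and 1048 on ago1-27_submerged. It fell in both genotypes, and WT_submerged varied most. The fitted log2 change with submergence was -1.29 ± 0.29 in wild type (adjusted p = 0.019) and -1.49 ± 0.29 in ago1-27 (adjusted p = 0.0096), and the interaction was -0.20 ± 0.40 (adjusted p = 0.86). The 4 measured genes of small RNA production and function also had 0 calls by limma, with 1 at an unadjusted p under 0.05 and a median of -0.23. DDL, which binds DICER-LIKE1, gave signals of 721, 486 and 518 on the WT_dark arrays, 624, 762 and 625 on WT_submerged, 575, 593 and 639.8 on ago1-27_dark and 417, 388 and 464 on ago1-27_submerged and an interaction of -0.75 ± 0.23 (adjusted p = 0.16). When WT_dark replicate 1 was omitted, it was called, at -0.93 ± 0.19 (adjusted p = 0.022). Without that array the WT_dark means of AGL16, CCS and DDL were 1012, 2818 and 502, and the interactions of AGL16 and CCS were -0.64 ± 0.24 (adjusted p = 0.14) and -0.13 ± 0.43 (adjusted p = 0.9).

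The interactions of low-oxygen transcripts depended on the arrays included. Of 23 measured genes limma called 0 with all arrays, beside 0.284% of all probe sets, a share at which 23 genes would usually hold none. An unadjusted p under 0.05 was reached by 4 of the 23, beside 14.8% of all probe sets, and the median was -0.04 over a range of -2.46 to 2.04. CML38 had an interaction of -0.61 ± 0.28 (adjusted p = 0.33), which rests on ago1-27 signals under the limit and was -0.11 with a floor at the 25th percentile, and PDC2 had 0.39 ± 0.41 (adjusted p = 0.7). In the fit lacking WT_dark replicate 1, the WT_dark means were 4653 and 2579, the interactions were -0.53 ± 0.30 (adjusted p = 0.32) and 0.26 ± 0.43 (adjusted p = 0.77), and the list's median was -0.35 with 2 genes called below 0, beside 3.04% of all probe sets. Without ago1-27_submerged replicate 3 the median was -0.74. Leaving out both of these arrays, a choice made after the data were seen, gave a median of -0.78 and 6 of 23 called below 0, beside 5.17% of all probe sets, whose median was then -0.11. Those 6 were AT4G27450, AT5G42200, AT2G17850, AT3G10040, AT5G44730 and AT5G10040, and the last of them lay under the low-signal limit on all ago1-27 arrays. Of the pair called below 0 without WT_dark replicate 1, AT4G27450, gave signals of 25340, 27850 and 25820 on the WT_dark arrays, 25750, 27660 and 24940 on WT_submerged, 6117, 7302 and 8013 on ago1-27_dark and 4463, 3545 and 4239 on ago1-27_submerged. Its WT groups overlapped, and it fell in ago1-27 without overlap. The change on submergence, on the log2 scale, was -0.01 ± 0.12 in wild type (adjusted p = 0.97) and -0.81 ± 0.12 in ago1-27 (adjusted p = 0.003), and the interaction was -0.79 ± 0.17 (adjusted p = 0.074), or -0.77 ± 0.19 (adjusted p = 0.04) without the array. The other, AT5G42200, gave signals of 2483, 1121 and 1347 on the WT_dark arrays, 3261, 3718 and 3031 on WT_submerged, 169, 186 and 135 on ago1-27_dark and 165, 166 and 185 on ago1-27_submerged. It was higher on all WT_submerged arrays than on WT_dark arrays and near the same low level on all ago1-27 arrays. Its interaction was -1.01 ± 0.34 (adjusted p = 0.2), or -1.35 ± 0.22 (adjusted p = 0.0082) without the array, whose signal was the highest of the WT_dark group. The WT_dark means without replicate 1 were 26830 and 1234. Of 5 glycolysis and fermentation genes limma called 0, with 0 at an unadjusted p under 0.05 and a median of 0.09.

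Genes of cell division had the highest median of the 27 lists with 3 or more measured genes, 0.90 over 8 genes, with 7 of 8 above 0, beside 47.0% of all probe sets. Limma called 0 of the 8, and 4 had an unadjusted p under 0.05, beside 14.8%. The median was 0.58 without ago1-27_submerged replicate 3 and 0.50 without both arrays that stood apart. HTB2, a histone H2B, gave signals of 1543, 1657 and 1224 on the WT_dark arrays, 618, 880.5 and 962 on WT_submerged, 811, 355 and 684 on ago1-27_dark and 723, 646 and 1315 on ago1-27_submerged. WT_dark was above WT_submerged on every array, while the ago1-27 groups overlapped and ago1-27_submerged replicate 3 was the highest of its group. Its log2 response amounted to -0.86 ± 0.32 in wild type (adjusted p = 0.13) and 0.55 ± 0.32 in ago1-27 (adjusted p = 0.31), and the interaction was 1.41 ± 0.45 (adjusted p = 0.18). AUR1, an Aurora kinase of mitosis, gave signals of 145, 106 and 91.0 on the WT_dark arrays, 65.3, 101 and 109 on WT_submerged, 198, 181 and 218 on ago1-27_dark and 309.8, 188 and 577 on ago1-27_submerged, with an interaction of 1.02 ± 0.49 (adjusted p = 0.36). It too was highest within ago1-27_submerged on replicate 3. TOPII, topoisomerase II, was the member below 0, at -0.28 ± 0.87 (adjusted p = 0.92). With WT_dark replicate 1 left out, the median was 0.82, limma called 0 and 3 had an unadjusted p under 0.05, the WT_dark means of HTB2 and AUR1 were 1441 and 98.5, and their interactions 1.37 ± 0.48 (adjusted p = 0.12) and 0.84 ± 0.51 (adjusted p = 0.37). Histone H2B genes are close copies of each other, and whether their probe sets are specific was not tested.

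Photosynthesis, cell wall and starvation lists held 0 calls by limma with all arrays, beside 0.284% of all probe sets. The 29 nuclear photosynthesis genes had a median of -0.14, with 23 below 0, beside 53.0% of all probe sets, and 4 at an unadjusted p under 0.05, beside 14.8%. The 66 plastid-encoded genes had a median of -0.12, with 0 at an unadjusted p under 0.05. Both medians turned positive without ago1-27_submerged replicate 3, to 0.0073 and 0.056, and without both arrays that stood apart, to 0.036 and 0.064. LHCB4.2, of the minor antenna of photosystem II, gave signals of 5605, 2608 and 2916 on the WT_dark arrays, 8396, 6724 and 7323 on WT_submerged, 19050, 20900 and 19680 on ago1-27_dark and 24230, 22590 and 19710 on ago1-27_submerged. It rose in wild type and stayed at a far higher level in ago1-27, and WT_dark replicate 1 was the highest of its group. The log2 response was 1.09 ± 0.22 in wild type (adjusted p = 0.013) and 0.15 ± 0.22 in ago1-27 (adjusted p = 0.71), and the interaction was -0.94 ± 0.32 (adjusted p = 0.2), and it was called without that array, at -1.28 ± 0.18 (adjusted p = 0.0049). The 20 cell wall growth genes, 5 of them at an unadjusted p under 0.05, had a median of -0.18, from -1.33 for XTH19 to 1.82 for EXPB1, and the median was -0.48 without WT_dark replicate 1 and -0.49 without ago1-27_submerged replicate 3. XTH33, a xyloglucan endotransglucosylase/hydrolase, gave signals of 117, 109 and 109 on the WT_dark arrays, 544, 516 and 343 on WT_submerged, 165, 89.1 and 170.4 on ago1-27_dark and 624, 573 and 462 on ago1-27_submerged. It rose in both genotypes, without overlap between dark and submerged arrays. On submergence the log2 change was 2.04 ± 0.25 in wild type (adjusted p = 0.001) and 2.02 ± 0.25 in ago1-27 (adjusted p = 0.0011), and the interaction was -0.02 ± 0.36 (adjusted p = 0.99), or -0.05 ± 0.38 (adjusted p = 0.96) without WT_dark replicate 1. AKINBETA1, a beta subunit of the SnRK1 energy sensor kinase and 1 of 4 measured starvation genes, 1 of which had an unadjusted p under 0.05, gave signals of 3128, 2237 and 2344 on the WT_dark arrays, 2503, 3291 and 2069 on WT_submerged, 4696, 5433 and 4890 on ago1-27_dark and 3197, 2581 and 1880 on ago1-27_submerged. It fell in ago1-27, and its WT groups overlapped. Submerged minus dark on the log2 scale came to 0.02 ± 0.21 in wild type (adjusted p = 0.97) and -1.003 ± 0.21 in ago1-27 (adjusted p = 0.014), and the interaction was -1.02 ± 0.30 (adjusted p = 0.15), or -1.17 ± 0.29 (adjusted p = 0.042) without the array. Without replicate 1 the WT_dark means of LHCB4.2, XTH33 and AKINBETA1 were 2762, 109 and 2291. The 10 autophagy genes matched by symbol had 0 calls by limma, 0 at an unadjusted p under 0.05 and a median of 0.06; AT5G66930 is not among them, since the annotation carries ATG101 only as its synonym.

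**Figure D5:**
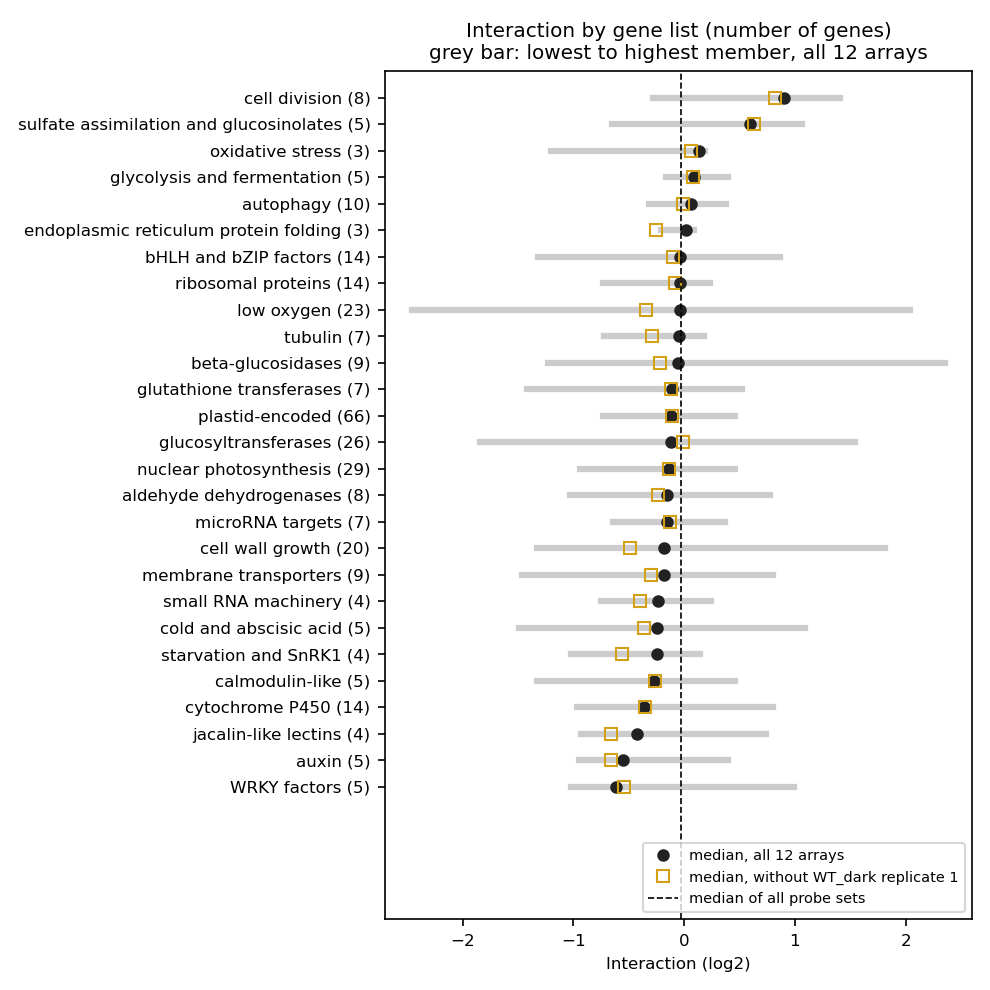
Median interaction (log2) of each gene list with 3 or more measured genes, with all 12 arrays (circles) and without WT_dark replicate 1 (squares), and the range of the members (grey). Cell division, at 0.90, has the highest median and WRKY factors, at -0.62, the lowest, and the low-oxygen list spans -2.46 to 2.04 around a median of -0.04.

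Over the 27 lists, 1 of 279 genes was called (0.358%), BGLU25, close to the 0.284% of all probe sets. FHL, AT4G12500 and AT4G12490 came from lists with fewer than 3 measured genes. With WT_dark replicate 1 left out, 19 of the 279 were called (6.81%) beside 4.9% of all probe sets. Over all 40 lists 23 of 294 genes were then called, 6 above 0 and 17 below. Over all probe sets this fit called 275 above 0 (1.86%) and 451 below 0 (3.04%), so calls below 0 were the more frequent there too. The list genes below 0 included ALDH11A3, an aldehyde dehydrogenase, and COR27, a cold-regulated gene. COR27 gave signals of 734, 662 and 465 on the WT_dark arrays, 371, 507 and 496 on WT_submerged, 222, 249.8 and 254 on ago1-27_dark and 68.6, 85.9 and 44.6 on ago1-27_submerged. It was lowest on the ago1-27_submerged arrays, with no overlap with any other group. Those 3 arrays lay under the low-signal limit, so the fall in ago1-27 was at least 2.43-fold, and the fitted values rest on signals that dim. The fitted log2 change with submergence was -0.43 ± 0.24 in wild type (adjusted p = 0.33) and -1.92 ± 0.24 in ago1-27 (adjusted p = 0.0012), and the interaction was -1.49 ± 0.35 (adjusted p = 0.084), or -1.62 ± 0.36 (adjusted p = 0.027) without WT_dark replicate 1, when the WT_dark mean was 564. Those above 0 included UGT74B1, a glucosyltransferase of glucosinolate synthesis, and APS3, an ATP sulfurylase. APS3 gave signals of 407, 1643 and 1370 on the WT_dark arrays, 864, 1017 and 1472 on WT_submerged, 397, 428 and 342 on ago1-27_dark and 645, 792 and 557 on ago1-27_submerged. WT_dark replicate 1 was about as low as ago1-27_dark there, and the other WT_dark arrays were high. Its interaction was 0.60 ± 0.57 (adjusted p = 0.67) with all arrays and 1.23 ± 0.29 (adjusted p = 0.038) without that one, when the WT_dark mean was 1507.

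Among the 726 calls made without WT_dark replicate 1, WT_dark was most often the group apart. It was the group farthest from the rest for 449, ago1-27_dark for 181, ago1-27_submerged for 58 and WT_submerged for 38. The responses had opposite signs for 552, and 339 name 1 gene. The calls were chosen on the same group levels, and the WT_dark level then rested on the other WT_dark arrays alone. These counts describe the calls and test nothing, and the matching shares over all probe sets were not counted for this fit. FMO (AT1G12200), a flavin monooxygenase chosen here after its values were seen, gave signals of 336, 977 and 821 on the WT_dark arrays, 217, 298 and 429.6 on WT_submerged, 136, 203 and 107 on ago1-27_dark and 209, 356 and 353 on ago1-27_submerged. The first WT_dark array lay within the WT_submerged range and the other WT_dark arrays stood above it. Its interaction was 2.14 ± 0.56 (adjusted p = 0.11) with all arrays, and 2.61 ± 0.44 (adjusted p = 0.0091) without WT_dark replicate 1, when the WT_dark mean was 899. AT3G54400, chosen in the same way, gave signals of 535, 91.3 and 112 on the WT_dark arrays, 1532, 1013 and 765 on WT_submerged, 956, 633 and 931 on ago1-27_dark and 1691, 1467 and 1636 on ago1-27_submerged. Here that array was higher than the other WT_dark arrays, which were the lowest of all 12. Its interaction was -1.64 ± 0.72 (adjusted p = 0.31) with all arrays and -2.44 ± 0.35 (adjusted p = 0.0056) without the array, when the WT_dark mean was 102.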

How the data were processed

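Leaf RNA was converted to biotin-labelled RNA with a 3' IVT kit, per the labels' protocols, and read on 12 ATH1 arrays. The deposited table holds 1 linear signal intensity per probe set and array. Per the submitters' processing notes it is MAS5 output, of no stated version, and every array has a 2% trimmed mean of 500. Groups came from the labels, 3 arrays each. Probe sets were named with the annotation supplied, which gives 1 gene to 13513 (13436 matched the RefSeq table), several to 503 and none to 8730. On log2 signals, 14812 probe sets were kept that passed their array's 40th percentile on 3 or more arrays, after leaving out 64 controls. The 40th percentile is also the low-signal limit.

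Group means were fitted with limma 3.58.1 in R 4.3.3 (variances moderated along an intensity trend, residual degrees of freedom 8, prior 4.61), with Benjamini-Hochberg adjustment over all 14812. Errors of log2 values are standard errors of the fit. Tables and figures were made in Python 3.11.15. The number of arrays limits the precision. In simulated data of this design the fit recovered 37 of 100 2-fold and 73 of 100 4-fold interactions, with 6 false calls among 14612 unchanged probe sets. Recovery at an adjusted p also depends on the share of probe sets with an interaction. That share was fixed in the simulation and is unknown in the real data. The simulated noise was normal, independent between arrays and of equal spread on every array for a given probe set. The real arrays differed, with fitted weights from 0.247 (ago1-27_submerged replicate 3) to 3.497 (WT_dark replicate 3), so these rates may not hold for them. Replicate numbers were checked for pairing: 8 of 18 same-numbered pairs had a residual correlation above 0.1 (range -0.28 to 0.35). This could not decide whether they were paired, and the arrays were treated as unpaired because the labels state no pairing. RNA quality was tested with exact permutation tests.

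The gene groups, lists and tests were chosen with earlier results of these data known. Named were up to 15 called genes in each direction with at least 1 group wholly above the limit, genes called in opposite directions in the genotypes, called list members, and PDC2, CML38, XTH33, CCS, AGL16 and AGO1 where named on the array. Genes named for the fit without WT_dark replicate 1 and as list examples were chosen after their values were seen. A gene on a list is represented by its brightest probe set. The alternatives changed the filter, normalization, floor, pseudocount, variance trend, array weights, replicate block and the arrays left out. The 40 lists covered 294 measured genes, with 27 lists of 3 or more genes, 10 of 1 or 2 and 3 of 0. No sequences or coordinates were used here.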

Additional observations from a re-analysis of the deposited data

Results flagged for a closer look

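The interaction tests whether the submergence effect differs between the genotypes, and it passed for 22 genes. Above 0 on the log2 scale were AT3G09480 (4.06), AT2G20560 (3.72), AT3G22240 (2.60), AT5G46230 (2.56), BGLU25 (2.36), AT1G73600 (2.12), FHL (2.08), Hop2 (1.86), CHI (1.73) and AT3G27770 (1.41). Below 0 were AT4G12500 (-3.86), AT4G12490 (-3.03), AT2G05540 (-2.15), AT5G05250 (-1.94), AT4G18970 (-1.82), AT3G50560 (-1.76), AT5G08350 (-1.53), AT2G39980 (-1.52), AT1G61260 (-1.52), AT3G10720 (-1.30), AT5G66930 (-1.13) and AT5G50915 (-1.13). AT3G09480 and AT2G20560 lay under the low-signal limit on all ago1-27 arrays.

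A control probe set outside the tests, U12639, parted the arrays by labelled treatment in both genotypes. Its mean signal on the 6 dark arrays was 27800, from 24470 to 29780, and it ranged from 1.74 to 44.7 on the 6 submerged arrays. The group means were 27840 in WT_dark, 27760 in ago1-27_dark, 17.5 in WT_submerged and 18.8 in ago1-27_submerged. Its relation to the preparation of the arrays was not tested.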

How the results depend on the processing

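The number of calls moved with the processing. Against 42 calls (21 higher, 21 lower), a filter at the 60th percentile gave 78 (32 and 46), the floor at the 25th percentile 83 (33 and 50), log2(signal + 32) 62 (26 and 36), median centring 14 (8 and 6), no variance trend 26 (14 and 12) and array weights 1798 (648 and 1150). No filter gave 35 (20 and 15), quantile normalization 55 (31 and 24), a robust trend 43 (21 and 22) and the replicate block 50 (22 and 28), and 35 of those 50 were among the 42. The block is not read as a pairing here, since the labels state none and the check of replicate numbers could not decide it. Leaving out 1 array gave 5 to 726 calls, 1 to 275 higher and 2 to 451 lower. The extremes were WT_submerged replicate 1 (5 calls) and WT_dark replicate 1 (726), and without ago1-27_dark replicate 3 there were 7. Leaving out WT_dark replicate 1 and ago1-27_submerged replicate 3 together, chosen after seeing the data, gave 1200 (434 and 766). The cause of these moves was not tested. All 42 kept their sign in 22 alternatives, less any that a stricter filter left untested, and 41 of 42 did with the floor, where 1 unnamed probe set went from 3.85 to -0.45.

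Over the named genes 470 alternative values kept their direction and side of the threshold, 146 kept the direction but lost the call, 1 gained it (CML38 with array weights, adjusted p = 0.046), 1 value moved and 0 reversed. With the floor, AT2G20560 lost its call at 1.07. Of the list medians 582 moved by less than the spread and 39 by more. The smallest effects are limited by 3 arrays per group and by dim signals. Probe values before MAS5 were not analysed here.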
